A study of Mus musculus with 12 samples.

Results

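Chemokines and cytokines are secreted or membrane-bound proteins through which cells signal to leukocytes and to one another, and their genes were followed here in 12 single cultured mouse cells labelled c-Kit+ cardiac progenitor cells (CPCs), grown from a c-Kit+ sort. The genes were chosen by a rule on names, with earlier results of these data known. It took every row whose symbol was Ccl, Cxcl or Il followed by a number, with at most 1 letter from a to f after an Il number, together with Cx3cl1, Csf1, Csf2, Csf3, Lif, Osm, Tnf, Tslp and Mif. The rule found 73 of the 21729 genes of the deposited table. They comprise 19 CC chemokines, 5 CXC chemokines with the ELR motif, 7 CXC chemokines without it, Cx3cl1, 4 colony stimulating factors including Il34, and the interleukins and other cytokines. The name rule leaves out relatives with other names, such as Kitl, Clcf1 and Ccl27a.

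Chemokines steer the migration of leukocytes through receptors with a typical G protein coupled fold: most CC chemokines attract monocytes, macrophages and lymphocytes, whereas the ELR CXC chemokines attract neutrophils. Cytokines such as Il6 and Lif signal through shared receptor chains to Janus kinases and STAT transcription factors, and Csf1 sustains macrophages. Many of these genes are held silent at rest and are switched on by NF-kappaB or interferon signalling, and stromal cells of the heart are a known source of several of them.

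The series measured polyadenylated RNA of 12 cells picked singly from cultured CPCs, amplified with the Clontech Smart-Seq v4 kit. All 12 cells belonged to 1 group: they derived from 12-week-old female FVB mice, were sorted as lineage-negative and c-Kit+ by magnetic beads, and were expanded to passage 5 in medium holding 10% serum, leukemia inhibitory factor at 10 ng/ml, basic fibroblast growth factor at 10 ng/ml and epidermal growth factor at 20 ng/ml. The labels name no animal or culture for a cell and the hearts were pooled, so the 12 cells count as 1 sample, no condition is compared and no test was possible. Spread between cells is given as a description, and the intervals cover counting error only, since reads carried no molecular identifiers. The medium supplied LIF protein to every cell. Cells grown in the same dish share what they secrete, but the labels do not say which cells shared a dish.

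Totals ran from 3453708 to 5690184 counts per cell, so that 3 counts corresponded to 0.527 to 0.869 CPM (a gene's counts scaled to a cell total of 1000000). The number of genes with a count was 11216 to 11950 in 7 cells and 10022 to 10181 in the other 5 (cells 7, 8, 10, 11 and 12), which had the highest totals. Kit, the gene for the sorted antigen, had counts in cell 10 alone, at 3.94 CPM. Cell 10 also stood apart by its endothelial markers, whose sum over 10 genes was 9810 CPM there and at most 58.5 CPM in any other cell. In cell 3 the sum of 10 haematopoietic and myeloid markers was 1623 CPM against at most 75.6 elsewhere, of which Cd53 made up 1463 CPM, while Ptprc and Itgam were at 0. Of 10 fibroblast markers 5 were counted in all cells, while Lum was counted in 1 cell, Postn and Tcf21 in 2 each and Dcn in 3. Their sums, 2080 CPM (cell 3) to 15896 CPM (cell 12), were largely Fbln2, which made up 3406 of 3594 CPM in cell 10, where Col1a2 was at 0.376 CPM. Cell 3 was the lowest for Fbln2 (1315 CPM) but the highest for Dcn (223 CPM, next 12.4 CPM) and Pdgfra (276 CPM, next 175 CPM). Of 10 mural markers Acta2 was at 3668 CPM in cell 11, beside Pdgfrb at 57.6 CPM, Tagln at 11.2 CPM and 0 for the others. The numbers of counted chemokine and cytokine genes, the order of levels, the median spread and the correlations of named pairs and sums are also given without cells 3 and 10.

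A set of 6 promoter sequences is shown first because they belong to a neutrophil chemokine that was counted (Cxcl1), to its neighbours of which hardly a count was seen (Cxcl2, Cxcl3), to chemokines that reached 10 CPM in cell 3 alone (Cxcl10, Ccl8) and to Il6. Each line is the 250 bases before the RefSeq start site on the gene's own strand, 5′ to 3′, build GRCm38.p6. Capitals mark matches on either strand to the NF-kappaB consensus and, in Cxcl10 at its first capitals, to an interferon-response-like pattern (TTTC, a gap of any 2 bases, TTTC). The windows are chr5:90890995-90891244 on the plus strand for Cxcl1, chr5:90903649-90903898 on the plus strand for Cxcl2, chr5:90785851-90786100 on the plus strand for Cxcl3, chr5:92348890-92349139 on the minus strand for Cxcl10, chr11:82114935-82115184 on the plus strand for Ccl8 and chr5:30012864-30013113 on the plus strand for Il6.
Cxcl1: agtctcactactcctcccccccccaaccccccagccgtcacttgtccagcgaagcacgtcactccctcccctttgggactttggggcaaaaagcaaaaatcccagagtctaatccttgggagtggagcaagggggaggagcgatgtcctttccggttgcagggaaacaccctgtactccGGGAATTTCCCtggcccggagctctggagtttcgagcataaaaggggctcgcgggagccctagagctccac
Cxcl2: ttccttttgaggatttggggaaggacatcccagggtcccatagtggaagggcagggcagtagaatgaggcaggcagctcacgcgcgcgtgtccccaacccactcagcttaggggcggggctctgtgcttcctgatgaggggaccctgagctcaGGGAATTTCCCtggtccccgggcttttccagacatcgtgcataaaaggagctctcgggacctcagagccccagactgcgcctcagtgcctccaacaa
Cxcl3: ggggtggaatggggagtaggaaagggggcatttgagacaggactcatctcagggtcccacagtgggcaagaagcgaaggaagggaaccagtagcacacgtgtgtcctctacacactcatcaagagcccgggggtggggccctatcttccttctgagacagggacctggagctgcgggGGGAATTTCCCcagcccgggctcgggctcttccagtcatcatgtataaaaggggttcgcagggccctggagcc
Cxcl10: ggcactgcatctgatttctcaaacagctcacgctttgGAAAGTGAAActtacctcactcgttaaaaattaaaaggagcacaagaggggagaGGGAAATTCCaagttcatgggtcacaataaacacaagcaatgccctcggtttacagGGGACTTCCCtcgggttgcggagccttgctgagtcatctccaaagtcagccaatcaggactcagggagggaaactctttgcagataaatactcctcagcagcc
Ccl8: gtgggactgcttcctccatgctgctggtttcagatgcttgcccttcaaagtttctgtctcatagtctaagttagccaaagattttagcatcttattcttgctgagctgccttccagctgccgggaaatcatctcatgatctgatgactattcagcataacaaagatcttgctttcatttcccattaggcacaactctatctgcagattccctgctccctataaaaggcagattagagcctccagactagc
Il6: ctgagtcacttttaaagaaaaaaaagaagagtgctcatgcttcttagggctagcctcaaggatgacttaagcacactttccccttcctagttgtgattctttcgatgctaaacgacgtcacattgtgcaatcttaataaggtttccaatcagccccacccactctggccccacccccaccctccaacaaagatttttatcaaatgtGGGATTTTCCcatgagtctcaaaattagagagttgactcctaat

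The Cxcl1, Cxcl2 and Cxcl3 windows held the same run, GGGAATTTCC, first base at -71, -97 and -73 from the start site. In Cxcl10 the consensus matched at -159 and -103 and the interferon-response-like pattern at -213, and in Il6 the consensus matched at -44. The Ccl8 window matched neither pattern and had a TATAAA box at -32. Windows were found for 51 of the 73 genes (58 windows in all, since some genes have several start sites), but not for Ccl2, Ccl7 or Cxcl16. An NF-kappaB match lay in 17.2% of these windows against 3.9% of all 32851 windows in the table. The interferon-response-like pattern was in 8.62% against 2.98%, the AP-1 site TGANTCA in 15.5% against 6.75%, and TATAAA in 36.2% against 12.4%. Both strands were searched, the AP-1 site reads the same on both, and NF-kappaB matches on opposite strands overlap. A match describes letters only and was not set against binding.

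Of the 73 genes, 41 had at least 1 count in any cell, which is 56.2% beside 66.6% of all genes in the table. At 10 CPM or more in any cell stood 22, or 30.1%, beside 49.2% of all genes. A further 19 were counted but stayed under 10 CPM in every cell, and 32 had no count at all. Over the 876 gene-by-cell values 249 held a count, a share of 28.4%, beside 50.5% over all genes; values of 1 gene in different cells are not independent, so no interval is given. A cell had counts for 20 of the genes in the median (mean 20.8 ± 4.27 SD, n = 12 cells), from 15 in cell 10 to 29 in cell 1. Counts in all 12 cells were found for 6 genes: Csf1, Mif, Il6, Ccl2, Ccl7 and Cx3cl1, or 8.22% beside 35.3% of all genes. At the other end 8 genes (11%, beside 6.05% of all genes) were counted in 1 cell only, and 7 of these rested on 10 counts or fewer. Without cells 3 and 10 the counted genes numbered 40 and those at 10 CPM or more 20, beside 65.3% and 47.5% of all genes.

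**Figure D1:**
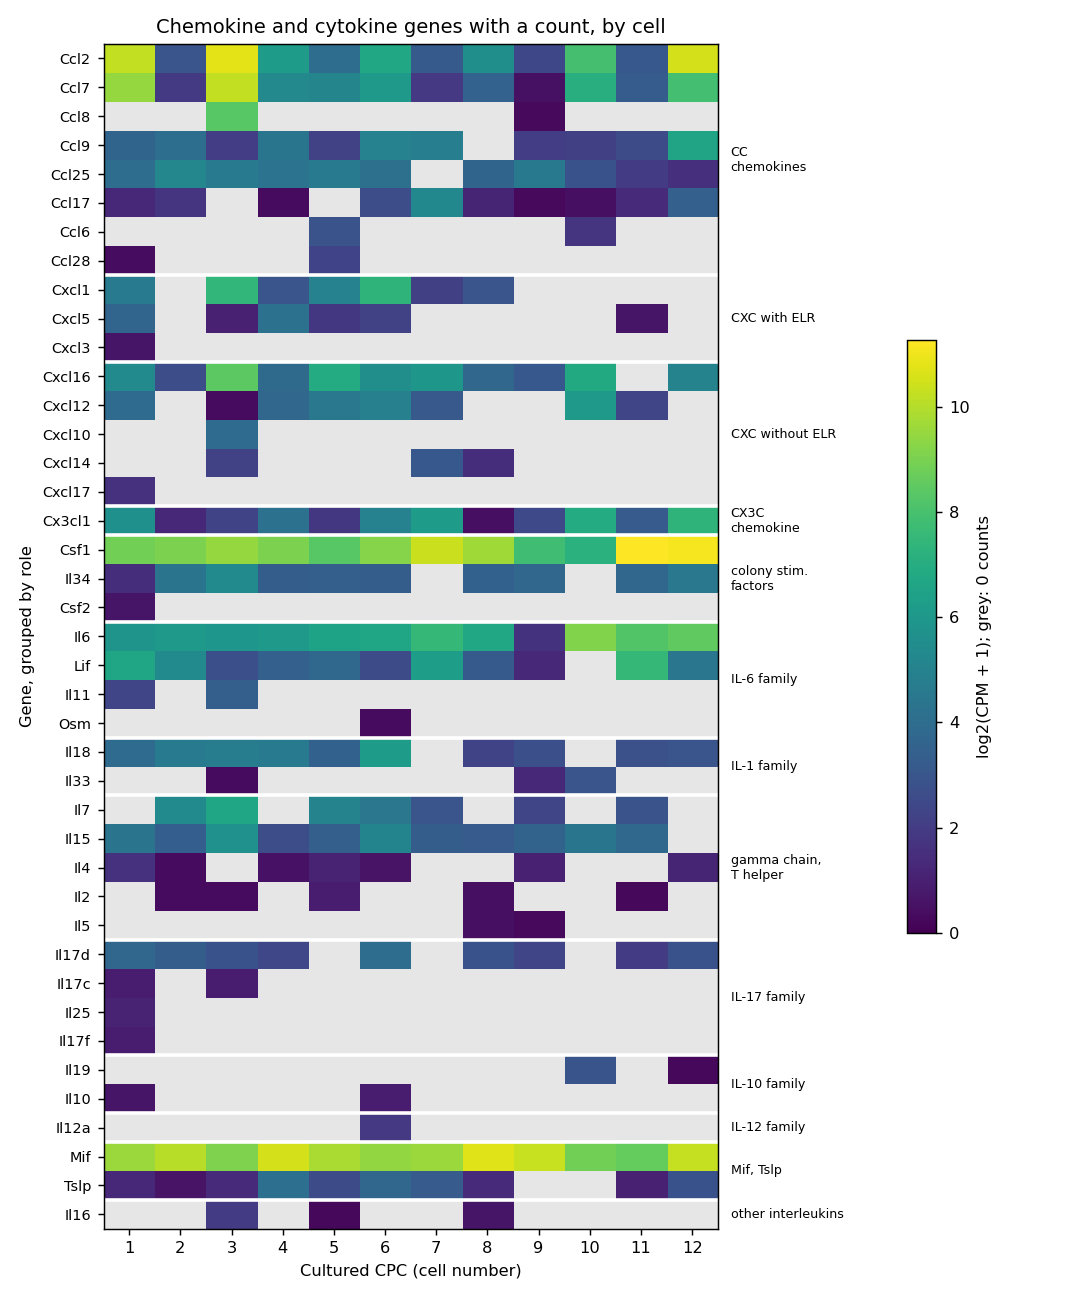
Level of each of the 41 counted genes (rows, grouped by role) in each of the 12 cultured CPCs (columns), as log2(CPM + 1), with grey for 0 counts. Csf1 and Mif are filled across every column, Ccl2 and Ccl7 are brightest in cells 1, 3 and 12, and Ccl8 and Cxcl10 are coloured almost in cell 3 alone.

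Because longer transcripts collect more reads, levels of different genes were ranked as CPM per kilobase of exon. Mif led at 1270 ± 561 (mean ± SD, n = 12 cells), followed by Ccl2 at 369 ± 591, Ccl7 at 259 ± 474, Csf1 at 165 ± 144 and Il6 at 67.2 ± 67.6. The next were Ccl8 at 53.3, Cxcl16 at 22, Cxcl1 at 18.3, Il18 at 15.8 and Cx3cl1 at 10.1 CPM per kilobase. The range over cells of every gene in this order overlapped that of its neighbour. Mif and Csf1 did not overlap: the lowest Mif value, 531, was above the highest Csf1 value, 470 CPM per kilobase. Cell 3 set part of this order. Without it Ccl7 was at 144 ± 268, below Csf1 at 167 ± 151, Ccl2 was at 258 ± 469, and Ccl8 was at 0.0373 CPM per kilobase (SD, n = 11 cells). Without cells 3 and 10 Ccl2 was at 261, Csf1 at 181, Ccl7 at 141 and Il6 at 55.1 CPM per kilobase. By the median cell the order differs too, since the median of Ccl2 was 52.7, that of Ccl7 45.3, that of Csf1 108 and that of Ccl8 0 CPM per kilobase.

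**Figure D2:**
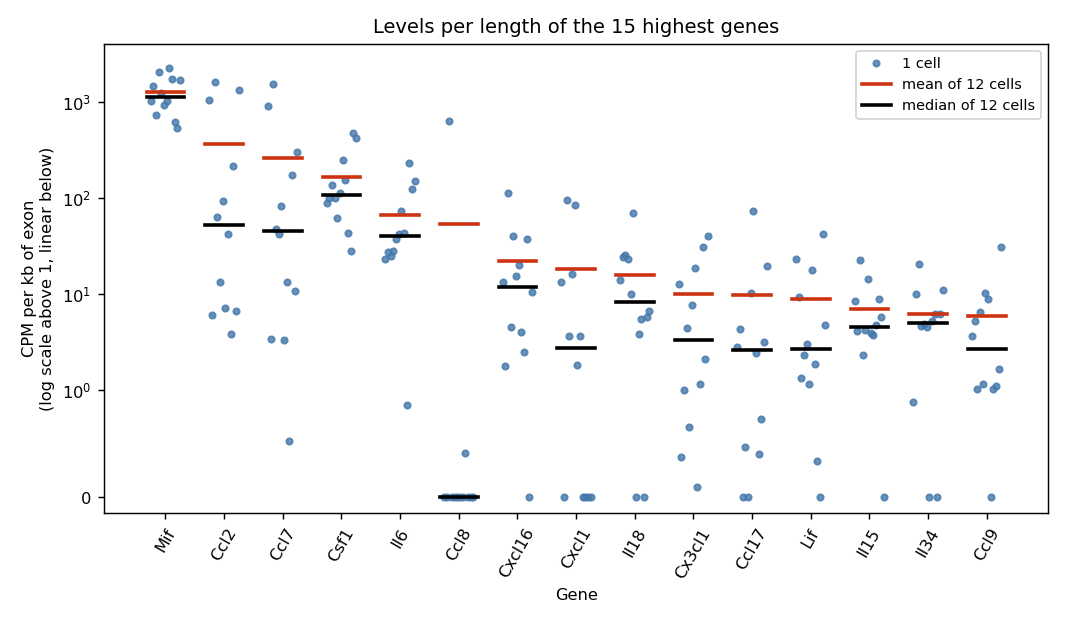
CPM per kilobase of exon (log scale above 1, linear below) of the 15 genes highest by mean, with a point for each of the 12 cells, a red bar for the mean and a black bar for the median. For Ccl2, Ccl7 and Ccl8 the mean bar lies far above the median bar, because 1 to 3 cells carry most of the level.

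The CC chemokines divided between the monocyte attractants Ccl2 and Ccl7, which had counts in every cell over a very wide range, Ccl8, which was high in 1 cell, and genes of lower level. In cells 1 to 12, in order, Ccl2, the main ligand of Ccr2 (chr11:82035571-82037453, plus strand), was at 1198, 6.91, 1818, 72.1, 15.1, 107, 8.18, 47.8, 4.4, 248, 7.58 and 1508 CPM. Ccl7, a second Ccr2 ligand that lies 8259 bases further along (chr11:82045712-82047525, plus strand), was at 723, 2.72, 1223, 38.6, 34, 66.7, 2.66, 10.7, 0.419, 138, 8.66 and 239 CPM. Cells 3, 12 and 1 were high in Ccl2, with over 1000 CPM each, and no other cell exceeded 248 CPM; cells 3 and 1 led in Ccl7 too. The mean was 420 ± 673 CPM for Ccl2 and 207 ± 380 CPM for Ccl7 (SD, n = 12 cells), so that the spread exceeded the mean, and without cell 3 it was 293 ± 533 and 115 ± 215 CPM (n = 11 cells).

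The levels of Ccl2 and Ccl7 went together over the cells. On the log2(CPM + 1) scale Pearson's r was 0.95 and Spearman's rho 0.97 over 12 cells that count as 1 sample and differ in depth. Without the 2 cells farthest from the Ccl2 median r was 0.94, within the 9 cells under 1000 CPM of Ccl2 it was 0.89, without cells 3 and 10 it was 0.93, and within the 7 cells with more genes it was 0.97. The other 5 cells are too few for a value of their own. The proportion of both genes was not fixed: Ccl2 over Ccl7 in CPM was between 1.49 and 1.87 in cells 1, 3, 4, 6 and 10, but 6.31 in cell 12, 4.46 in cell 8 and 0.444 in cell 5. The ratio of 10.5 in cell 9 rests on 21 and 2 counts.

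**Figure D3:**
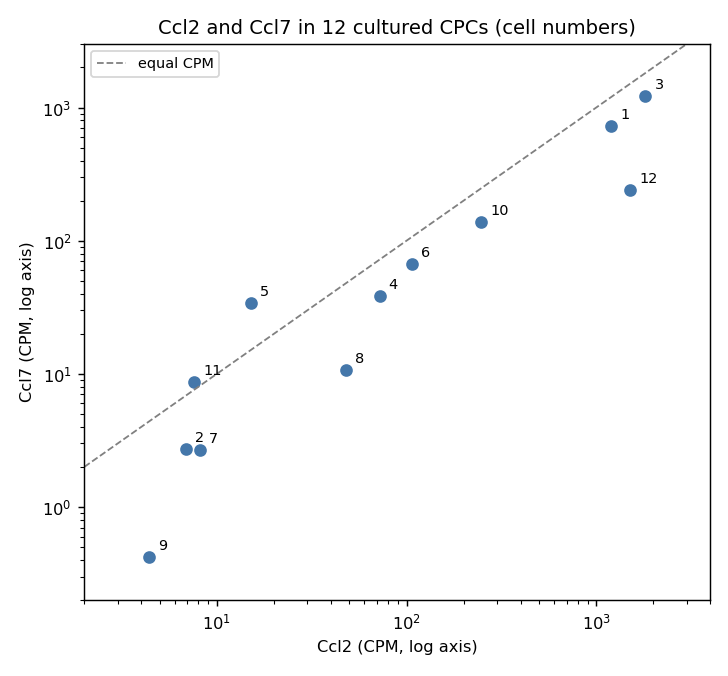
Ccl7 against Ccl2 in CPM on log axes, with a point and number for each of the 12 cells and a dashed line where both are equal. The points climb from cell 9 at 4.4 and 0.419 CPM to cell 3 at 1818 and 1223 CPM, and cell 12 lies well below the line.

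Further CC chemokines follow on the same stretch of chromosome 11: Ccl11, Ccl12, Ccl8 and, 59858 bases after Ccl8, Ccl1, which had no count. Ccl11, an eosinophil attractant, and Ccl12, a second mouse monocyte chemoattractant, lie between Ccl7 and Ccl8 and had 0 counts in all 12 cells, which allows a level of up to 0.0532 CPM each over the 56346231 counts of the 12 cells together. Ccl8 (chr11:82115185-82116799, plus strand) was at 326 CPM in cell 3 on 1238 counts, had 1 count in cell 9 and 0 in the other 10 cells. Cell 3 thus had the highest level of all 3 counted chemokines of this stretch, while cells 1 and 12, next in Ccl2, had none of Ccl8.

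The other counted CC chemokines were low. Ccl9, a Ccr1 ligand of rodents (chr11:83572919-83578636, minus strand), was at 11.3, 16, 3.16, 20.1, 3.58, 31.3, 27.4, 0, 3.14, 3.38, 5.05 and 94.9 CPM in cells 1 to 12. Ccl25, the Ccr9 ligand of thymus and gut (chr8:4325210-4360020, plus strand), was at 15.1, 35.8, 24, 18.7, 24.9, 16.7, 0, 11.3, 22.8, 6.2, 3.07 and 1.93 CPM. Ccl17, a Ccr4 ligand that attracts T helper cells (chr8:94810453-94812036, plus strand), was at 1.45, 2.22, 0, 0.24, 0, 5.31, 37.7, 1.27, 0.21, 0.376, 1.62 and 10 CPM. Ccl9 was highest in cell 12 and Ccl17 in cell 7, which held 62.4% of its summed level, whereas Ccl25 was more even, with 8 cells at 10 CPM or more and its lowest values in cells 7, 10, 11 and 12. Ccl6 reached 6.37 CPM in cell 5 and Ccl28 3.78 CPM in the same cell, and each had counts in 1 further cell. No count was found for Ccl1, Ccl3, Ccl4, Ccl5, Ccl19, Ccl20, Ccl22, Ccl24 or Ccl26, a set that includes the lymphoid chemokine Ccl19, of whose 75-base windows only 54.7% were unique.

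Among the ELR CXC chemokines, which draw neutrophils through Cxcr2, Cxcl1 and Cxcl5 reached 10 CPM. Cxcl1 (chr5:90891241-90893115, plus strand) was at 25.2, 0, 177, 6.95, 30.6, 160, 3.42, 6.91, 0, 0, 0 and 0 CPM in cells 1 to 12. Cells 3 and 6 were far above the rest, cells 5 and 1 intermediate, and 5 cells had no count. Cxcl5 (chr5:90759360-90761624, plus strand) was at 11.9, 0, 1.05, 18, 2.59, 3.72, 0, 0, 0, 0, 0.541 and 0 CPM, so that its highest cell, cell 4, was not a high cell of Cxcl1. Cxcl3 had 2 counts in all, in cell 1, and Cxcl2 and Cxcl15 had none. The windows of Cxcl2 and Cxcl3 printed above carry the same NF-kappaB run as that of Cxcl1, and the part of this run in their levels was not tested.

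Of the CXC chemokines without the ELR motif, Cxcl16 was the most widely counted. Cxcl16, a membrane-bound ligand of Cxcr6 (chr11:70453983-70459984, minus strand), was at 40.8, 5.43, 343, 13.9, 121, 46.5, 61, 12.2, 7.55, 113, 0 and 31.5 CPM in cells 1 to 12; 18.3% of its exon bases overlap Zmynd15, and reads of both could not be told apart there. Cxcl12, the ligand of Cxcr4 and Ackr3 that retains progenitors in bone marrow (chr6:117168535-117181367, plus strand), was at 14.2, 0, 0.264, 12.2, 21.9, 29.2, 7.8, 0, 0, 65.5, 4.15 and 0 CPM. Cxcl16 was highest in cell 3 and Cxcl12 in cell 10, the cell of the endothelial markers, and cells 2, 8, 9 and 12 had no Cxcl12 count.

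Cxcl10, the interferon-induced ligand of Cxcr3 (chr5:92346638-92348889, minus strand), was at 14.5 CPM in cell 3 on 55 counts and at 0 in the other 11 cells; 5.9% of its exon bases overlap Art3. Cxcl14 reached 7.61 CPM in cell 7 with counts in 3 cells, Cxcl17 had 7 counts in cell 1, and Cxcl9 and Cxcl13 had none. Cx3cl1, which is tethered to the membrane and read by Cx3cr1 (chr8:94772009-94782427, plus strand), was at 50.1, 1.48, 3.96, 17.7, 2.59, 30.6, 74, 0.364, 4.61, 122, 8.3 and 159 CPM. It was counted in all cells, was highest in cells 12, 10, 7 and 1, and rested on 2 counts in cell 8.

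Of the colony stimulating factors, Csf1 was high in every cell. Csf1, the growth factor of macrophages (chr3:107741048-107760469, minus strand), was at 473, 534, 725, 535, 329, 602, 1311, 815, 228, 148, 2480 and 2245 CPM in cells 1 to 12, with a mean of 869 ± 762 CPM (SD, n = 12 cells). Il34, the second ligand of the same receptor (chr8:110741829-110805924, minus strand), was at 1.74, 19.5, 40.6, 9.11, 9.55, 9.03, 0, 10.2, 12.2, 0, 12.1 and 21.6 CPM. Cells 11, 12 and 7 were the highest in Csf1 and cell 10 the lowest, whereas Il34 was highest in cell 3 and absent from cells 7 and 10. The receptor Csf1r was at most 59.1 CPM, in cell 3, with a median of 5.19 CPM. Csf2 had 2 counts, in cell 1, and Csf3 none.

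In the IL-6 family, most members of which signal through the receptor chain Il6st, Il6 and Lif reached 10 CPM. Il6 (chr5:30013114-30019981, plus strand) was at 55.9, 66.7, 60.1, 68.5, 91.9, 102, 180, 106, 2.1, 560, 300 and 365 CPM in cells 1 to 12, and Lif, which keeps embryonic stem cells undifferentiated (chr11:4257557-4272514, plus strand), was at 102, 41, 5.8, 10.1, 13.1, 5.05, 78, 8.18, 1.47, 0, 183 and 20.6 CPM. Il6 was highest in cells 10, 12 and 11 and was between 55.9 and 180 CPM in 8 others, and cell 9 stood far below, with 10 counts (exact Poisson interval 4.8 to 18.4 counts). Lif was highest in cell 11, then in cells 1 and 7, and was not counted in cell 10, the highest cell of Il6. Il11 had counts in cell 3 (9.76 CPM) and cell 1 (4.05 CPM), Osm had 1 count in all, and Il27 and Il31 had none.

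**Figure D4:**
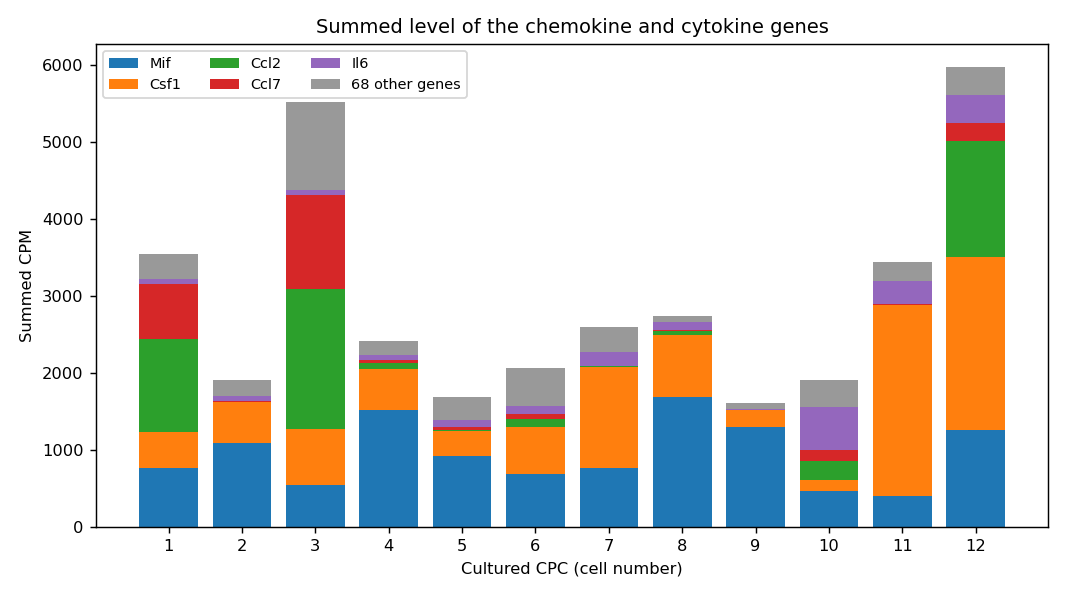
Summed CPM of the chemokine and cytokine genes in each of the 12 cells, as stacked bars from 0 split into Mif, Csf1, Ccl2, Ccl7, Il6 and all the others. The tallest bars, cells 12 (5969 CPM) and 3 (5515 CPM), are tall through Ccl2 with Csf1 in cell 12, and through Ccl2, Ccl7 and the other genes in cell 3.

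In the IL-1 family only Il18 reached 10 CPM. Il18, which is made as a precursor and released after cleavage (chr9:50554827-50581840, plus strand), was at 14.5, 25.2, 26.4, 24, 10.3, 72.3, 0, 4, 5.66, 0, 5.95 and 6.85 CPM in cells 1 to 12. Cell 6 was the highest and cells 7 and 10 had no count. Il33, a nuclear alarmin of stromal and endothelial cells, reached 6.76 CPM in cell 10 with counts in 3 cells, and Il1a and Il1b, the main inflammatory members, had no count.

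Of the gamma chain and T helper cytokines, Il7 and Il15, which stromal cells are known to make, reached 10 CPM. Il7, a survival factor of lymphocytes (chr3:7569994-7613760, minus strand), was at 0, 41, 99.1, 0, 32.4, 21, 6.85, 0, 4.19, 0, 6.5 and 0 CPM in cells 1 to 12. Il15, which sustains natural killer cells (chr8:82331632-82403222, minus strand), was at 19.4, 9.38, 51.2, 5.27, 9.55, 32.9, 8.94, 8.54, 10.9, 20.1, 13 and 0 CPM. Both were highest in cell 3, but Il7 was absent from 5 cells and Il15 from cell 12 alone. The T cell products stayed near 1 to 7 counts a cell: Il4 had 30 counts over 7 cells, Il2 9 over 5 cells and Il5 3 over 2 cells, and Il3, Il9, Il13 and Il21 had none. Of the exon bases of Il5, 27.1% overlap Gm12214, and reads of both could not be told apart there.

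The remaining families were low, with the exception of Mif. Il17d, the IL-17 family member of non-lymphoid tissues (chr14:57524777-57543166, plus strand), was at 12.2, 9.14, 6.06, 4.31, 0, 15.1, 0, 6.18, 4.19, 0, 3.07 and 6.15 CPM in cells 1 to 12, and Il17c, Il17f and Il25 had 3 to 6 counts each over all cells. Il19 had 35 counts in cell 10 and 1 in cell 12, Il10 had 5 counts in 2 cells, Il12a had 10 counts in cell 6, and Il16 had 15 counts in 3 cells. Tslp, an epithelial and stromal activator of dendritic cells, was at 1.45, 0.494, 1.58, 16.5, 4.97, 12.2, 8.37, 1.64, 0, 0, 1.08 and 6.15 CPM, highest in cells 4 and 6. No count was found for Il17a, Il17b, Il20, Il22, Il24, Il12b, Il23a or Tnf. Mif, a cytokine stored in the cytoplasm of most cell types (chr10:75859353-75860240, minus strand), was at 762, 1085, 546, 1514, 916, 689, 766, 1680, 1289, 462, 396 and 1252 CPM and was the least variable of the 22 genes at 10 CPM or more, with a coefficient of variation of 0.442. Only 61.7% of the 75-base windows in its exons were unique, since several other genes share the rest, and reads that mapped to more than 1 place were discarded upstream, so that its level may be understated.

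Summed over the genes, a cell held 2498 CPM in the median (mean 2946 ± 1451 SD, n = 12 cells), and Mif, Csf1, Ccl2, Ccl7 and Il6 together made up 88.4% of it. Without Mif the median was 1407 CPM, and cell 9 had the least (314 CPM) and cell 3 the most (4968 CPM). The spread of the single genes between cells was wide: the median coefficient of variation of the 22 genes at 10 CPM or more was 1.43 beside 0.594 for all 10698 genes at that limit. A limit met in any cell lets in genes through 1 high cell, as it did Cxcl10 and Ccl8 through cell 3. Without cell 3 the median was 1.31 for 20 genes beside 0.578 for all 10601. Since low genes vary more, the same was read at matched levels. Between 100 and 1000 CPM the median was 1.01 for 5 genes beside 0.383 for 2078, between 30 and 100 CPM 1.44 for 4 beside 0.494 for 3368, and between 10 and 30 CPM 1.33 for 8 beside 0.661 for 2935. The other 5 of the 22 genes had means under 10 CPM and passed the limit only through 1 or 2 high cells. No value is given for their band of levels, though they count in the median of 1.43. The 8 genes between 10 and 30 CPM include Ccl8, which passed through cell 3 alone and had a coefficient of variation of 3.46. Of the 22 genes 3, Cxcl10, Ccl17 and Ccl8, had at least 50% of their summed level in 1 cell, which is 13.6% beside 5.97% of all genes at 10 CPM or more. Cxcl10 and Ccl8 passed the 10 CPM limit only through the cell that holds their level; of the 20 genes at 10 CPM or more in at least 2 cells only Ccl17 was so held (5%), beside 2.1% of all such genes, and no contrast is read from 1 gene. The count of 3 was unstable: without cell 6 it was 9 of 22 beside 6.78% of all genes, without cells 3 and 10 it was 4 of 20 beside 3.46%, at a limit of 40% it was 10 of 22 beside 9.44%, and with median-of-ratios size factors 6 of 23 beside 6.55%. It was also 6 without cell 5 and 5 without cell 1, 10 or 12, but the share over all genes was not computed there, so no contrast is read. The median coefficient of variation without cells 3 and 10 was 1.2 for 20 genes beside 0.542 for all 10324.

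Cell 3 was the highest cell for 9 of these 22 genes (Ccl2, Ccl7, Ccl8, Cxcl1, Cxcl10, Cxcl16, Il7, Il15 and Il34), or 40.9%, beside 6.98% of all genes at 10 CPM or more. Ccl8 and Cxcl10 reached 10 CPM in cell 3 alone and so had to count for it; of the 20 genes at 10 CPM or more in any other cell, cell 3 was the highest for 7 (35%), beside 6.13% of all such genes. These counts were made after the values were seen. With median-of-ratios size factors, which raise the values of cell 3 by a factor of 1.2, it was 10 of 23 beside 11.7%, and with all cells thinned to the same depth 9 of 22 beside 7%. The gene that the size factors added, Il11, was at 9.76 CPM in cell 3 by total counts. It passed the limit through cell 3 alone, as did Ccl8 and Cxcl10, so these genes had to count for cell 3. A list of 10 interferon-stimulated genes, also drawn up after the values were seen, summed to 11227 CPM in cell 3, to 4299 CPM in cell 7 and to at most 448 CPM in the others. In cell 7 Cxcl10 and Ccl8 had no count and Ccl2 was at 8.18 CPM. In cell 3 the myeloid markers Cd68, Lyz2 and Csf1r were at 69.1, 30.3 and 59.1 CPM. The next highest values of these genes were 64.4 (cell 9), 20.2 (cell 7) and 19.7 CPM (cell 4). Ptprc, Itgam and Fcgr3 were at 0 in cell 3 and Adgre1 was at 1.58 CPM. The part of these marker genes in the chemokine levels of cell 3 was not tested.

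Pairs of these genes other than Ccl2 with Ccl7 showed weaker relations. Over all 136 pairs of the 17 genes whose mean reached 10 CPM, the median r was 0.07, and it ran from -0.67 for Cxcl12 with Il34 (-0.47 without cells 3 and 10) to 0.95. An r over 0.6 was found for 6 pairs (4.41%), and 3 of them were so without cells 3 and 10 as well. Over all 36052786 pairs of the 8492 genes at the same limit the median was 0.02 and 3.88% were over 0.6. Csf1 with Lif was second at r = 0.70 (rho = 0.52), but r was 0.66 without the 2 cells farthest from the Csf1 median, 0.59 without cells 3 and 10, and 0.29 within the 7 cells with more genes. Cx3cl1 with Ccl9 was at 0.66, at 0.83 without cells 3 and 10 and at 0.56 within the 7 cells. Ccl25 with Il18 was at 0.69, 0.73 and -0.18 in the same sets of cells, Cxcl1 with Cxcl16 at 0.60, 0.65 and 0.88, and Ccl25 with Cx3cl1 at -0.62, -0.61 and -0.95. These are descriptions over cells that count as 1 sample, and no test was attached to them.

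The study names 7 genes among the G1/S and G2/M genes raised in cultured cells. They are the kinases Cdk1, Aurka and Aurkb, the cyclin Ccnb2, and the centromere proteins Cenpa, Cenpe and Cenpf. The summed level of these 7 genes of the G2 and M phases was set beside the cytokine genes after the values were seen. It was lowest in cell 11 (33.7 CPM) and highest in cell 9 (3725 CPM). Cells 3, 11 and 12, the highest in summed CPM without Mif, had cell cycle sums of 47.7, 33.7 and 210 CPM, and cell 9, the lowest at 314 CPM, had the highest. Cell 7, with a cell cycle sum of 67.9 CPM, was at 1823 CPM, and cell 1, with 1095 CPM, was at 2784 CPM. On log2 scales r was -0.75 and rho -0.82 over 12 cells, -0.64 and -0.73 without the 2 cells farthest from the cell cycle median, -0.69 and -0.77 without cells 3 and 10, and -0.79 for both within the 7 cells with more genes. Csf1 alone was at r = -0.62, at -0.38 without the 2 farthest cells, at -0.85 without cells 3 and 10 and at -0.89 within the 7 cells with more genes. Mif went the other way, with r = 0.64, and with 0.45, 0.62 and 0.58 in the same sets of cells. Ccl25 also rose with the cell cycle sum, at r = 0.57 over 12 cells. Of the 22 genes at 10 CPM or more, 16 had an r under 0 with this sum (72.7%, median -0.21), beside 41.4% and a median of 0.09 over all 10698 genes; 2 of the 22, Csf1 and Il6, were under -0.5 (9.09%), beside 5.69% of all genes. Cxcl10 and Ccl8, which reached 10 CPM in cell 3 alone, could hardly have another sign. Of the 20 genes at 10 CPM or more in any other cell 14 were under 0 (70%, median -0.16), beside 41% of all 10601 such genes. Besides these single genes, the summed level without Mif, Ccl2, Ccl7 and Csf1 was set beside the cell cycle sum, with r = -0.73, and -0.70, -0.69 and -0.80 in the other 3 sets of cells. CPM within a cell sum to a constant, so levels of genes are not independent of each other.

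**Figure D5:**
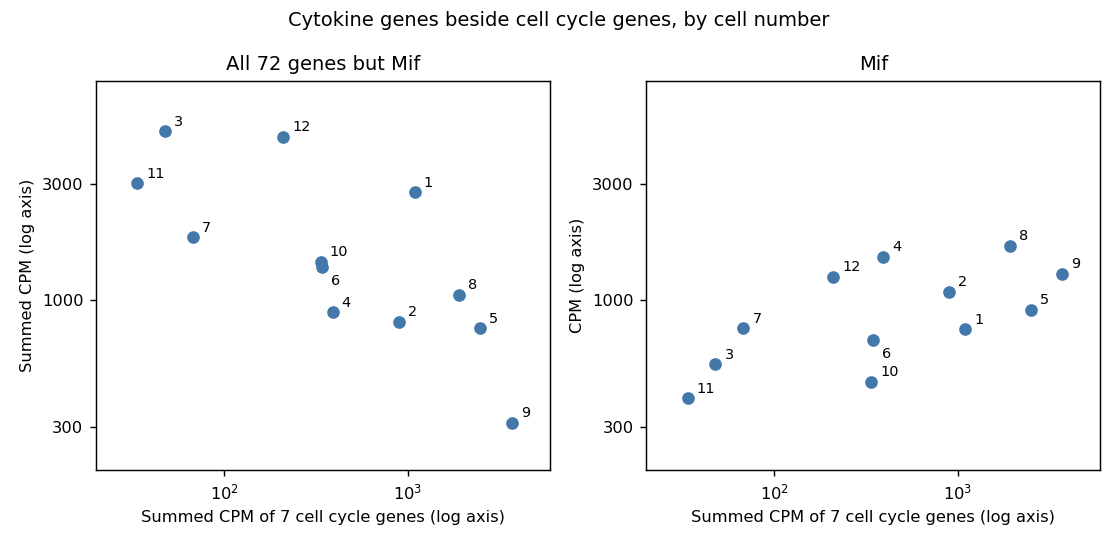
Summed CPM of the chemokine and cytokine genes without Mif (left) and CPM of Mif (right) against the summed CPM of 7 cell cycle genes, on log axes, with a point and number for each of the 12 cells. On the left the points fall from cells 3, 11 and 12 to cell 9 at 314 CPM, with cell 1 above the others of like cell cycle sum, and on the right they rise, with cells 6 and 10 low.

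Of 23 chemokine receptors 12 had a count (52.2%, beside 66.6% of all genes) and only Ackr3, the decoy receptor of Cxcl12, reached 10 CPM, with a median of 41.6 CPM and a highest value of 305 CPM in cell 10. The next by mean were Xcr1, Cxcr5 and Ccr1, none above 6.68 CPM in any cell. Ccr2, the receptor of Ccl2 and Ccl7, and Cxcr2, that of Cxcl1, had no count, and Cxcr4 did not exceed 0.995 CPM. Of 47 cytokine receptor genes 31 had a count (66%) and 24 reached 10 CPM (51.1%), near the 66.6% and 49.2% of all genes, among them Tnfrsf1a, a receptor of Tnf (median 121 CPM), Il4ra (95.5 CPM) and Osmr (83.5 CPM). The chain Il6st had a median of 56.2 CPM, Lifr 9.48 CPM and Il6ra 7.15 CPM, and Cd74, a receptor of Mif, had no count. Grn, Kitl, Tgfb1 and Ccl27a led the 17 relatives outside the name rule that the table holds, of which 12 had a count and 6 reached 10 CPM, and Kitl, the ligand of c-Kit, had a median of 185 CPM.

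Most listed genes of cytokine signalling and mRNA decay were counted, beside 66.6% of all genes counted in any cell and 49.2% at 10 CPM. All 20 listed regulators and targets of NF-kappaB reached 10 CPM in at least 1 cell, and 14 had counts in all 12 cells (70%, beside 35.3% of all genes), led by Ptgs2, the inducible prostaglandin synthase (median 212 CPM), Nfkbia (118 CPM), Vcam1 (111 CPM) and Sod2 (133 CPM). Of 16 JAK and STAT pathway genes all had a count and 15 reached 10 CPM, with 9 counted in all 12 cells (56.2%), led by Jak1 (168 CPM), Stat3 (108 CPM), Stat6 (106 CPM) and Socs2 (83 CPM). All 9 regulators of cytokine mRNA decay reached 10 CPM and had counts in all 12 cells, led by Elavl1 (157 CPM), Zfp36l2 (104 CPM), Zfp36 (55.6 CPM) and Rc3h2 (49.6 CPM). Their summed level was lowest in cell 3, at 282 CPM, beside a median of 538 CPM, and highest in cell 7, at 887 CPM. The sum does not stand for each gene: Zfp36 was lowest in cell 3, but Elavl1 in cell 6, Zfp36l2 in cell 4 and Rc3h2 in cell 12.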

How the data were processed

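Libraries of 12 single cells were made with the Smart-Seq v4 and Nextera XT kits. Per the submitters' processing notes reads were aligned to mm10 with STAR 2.5.2b, and the study's methods keep only reads with a single mapping place. The counting program, annotation and strand setting are not given in the sources used here. The deposited values are whole-number counts per gene for each cell, which the authors did not normalize, with 21729 gene symbols as rows.

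Counts were divided by each cell's total to give CPM, with no filter beyond those stated. Exon lengths and positions came from GENCODE vM21 (GRCm38), which matched 98.4% of the symbols and all 73 members. Promoter windows came from RefSeq (GRCm38.p6). The 12 cells were treated as 1 sample, so no test was made. Poisson intervals are exact, at a confidence level of 0.95. Correlations used log2(CPM + 1) and genes whose mean reached 10 CPM. Uniqueness was the share of a gene's 75-base exon windows found in no other GENCODE gene. The level of 10 CPM in any cell decided which members were named with a value in every cell. Members under it are given by range, and the lists of receptors, signalling, decay and related genes by their counts and the 4 genes of highest mean, except 1 gene that is not reported here. Marker lists are given by their sums and the genes that bear on a result. Members and lists were chosen with earlier results of these data known. The cell cycle and interferon comparisons, and leaving out cell 3 or cells 3 and 10, were added after the values were seen. Scripts ran in Python 3.11.15 with numpy 2.4.6, pandas 2.3.3 and scipy 1.17.1, and were tested on simulated data. Alternatives covered detection limits, scaling, transcript length, thresholds, pseudocounts and leaving out single cells.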

Additional observations from a re-analysis of the deposited data

How the results depend on the processing

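Of 41 alternative values for 7 results, other than those that leave out 1 cell, 31 stayed within the spread between cells, within 1.5 times the count or, for the share, within its exact binomial interval, which takes the values as independent. Stricter detection lowered the share of values with a count from 28.4% to 24.5% (at least 5 counts), 22.6% (at least 10 counts), 24.8% (at least 1 CPM) and 14.6% (at least 10 CPM). The median number of genes per cell fell from 20 to 15.5 at 10 counts and to 10 at 10 CPM, and the genes detected in any cell from 41 to 22 at 10 CPM. The number held mostly by 1 cell, 3, was 10 at a limit of 40%, 8 with genes from 5 CPM and 6 with median-of-ratios size factors, which multiply CPM by 0.897 in cell 9 to 1.2 in cell 3. For genes from 5 CPM the share over all genes was not computed.

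Leaving out each cell in turn gave 36 to 41 genes detected, a median of 20 per cell, a share of 27.4 to 29.1%, a summed level of 2406 to 2589 CPM, 9 to 10 shared genes among the 10 highest per kilobase, a median correlation of 0.03 to 0.10, and 2 to 9 genes held mostly by 1 cell. The last count was 9 without cell 6, 6 without cell 5, and 5 without cell 1, 10 or 12. The share over all genes was not computed without cell 1, 5, 10 or 12. Without both cells 3 and 10, an alternative chosen after the data were seen, 8 genes were shared among the 10 highest, the median correlation was 0.02 and 4 genes were held mostly by 1 cell. No paired analysis was possible because all cells belong to 1 group. Depth limits the low genes: in a single cell, a level under 0.527 to 0.869 CPM cannot be told from 0.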
